A study of Mus musculus with 2 samples.

Results

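The unfolded protein response and the integrated stress response were followed here through 10 named genes in mouse embryonic fibroblasts (MEF) with and without the mRNA export and processing protein THOC5. The genes were Ddit3, Atf4, Trib3, Chac1, Asns, Hspa5, Herpud1, Xbp1, Hspa1a and Hspa1b, and every probe whose gene name in the array files is one of these was taken. Of the 10 genes, 9 had a probe of their own name among the 28233 genes named on the array. Hspa1b had none, but the probe named Hspa1a lists transcripts of Hspa1a and Hspa1b, so that these genes were read together. The 9 genes had 10 probes, since Atf4 had 2.

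Both arrays were hybridised with RNA of an immortalized MEF line, background C57BL/6 x B6:129 Ola, that carries Rosa26ERT2 Cre and THOC5 (flox/flox). Control cells, labelled wildtype, carry these alleles too and received no tamoxifen, and THOC5 knockdown cells had 2 days of tamoxifen per the labels. The general methods of the study describe a shorter exposure, followed by growth medium and then starvation. Tamoxifen, Cre activation and loss of THOC5 cannot be told apart. On each array Cy3 (green) carried unstimulated, serum-starved cells and Cy5 (red) carried cells after 1 h of fetal calf serum (FCS). With 1 array per group and no exchange of dyes, no test, SD over cultures or p-value can be given, and a dye bias of a probe stays in its ratio. Values are described as folds, at 2-fold and at 1.5-fold, beside the share of all genes past the same limit.

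When misfolded proteins gather in the endoplasmic reticulum (ER), PERK, IRE1 and ATF6 signal from its membrane. PERK, like the kinases GCN2, PKR and HRI, phosphorylates eIF2alpha, which slows translation but favours that of ATF4, a transcription factor that induces CHOP (the product of Ddit3), Trib3, Chac1 and Asns. This branch, the integrated stress response, also answers amino acid shortage and is used by growing fibroblasts for amino acid supply. IRE1 splices Xbp1 mRNA, and XBP1 and ATF6 induce ER chaperones such as Hspa5 and degradation factors such as Herpud1. Hspa1a and Hspa1b belong to the separate heat shock response of the cytosol.

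Response elements near the starts of these genes are shown first, because they are where ATF4, ATF6 and XBP1 are known to act on such genes. All 10 genes were found by symbol in a RefSeq table of promoters (GRCm38.p6), which holds 250 bases before and 50 bases after each start. Searched on both strands were TGATGNAA (the core of the C/EBP-ATF response element, bound by ATF4), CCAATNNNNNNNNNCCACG (the ER stress response element), GAANNTTCNNGAA (the heat shock element), TGACGTCA (the cyclic AMP response element), TGACGTGG (the unfolded protein response element) and the serum response element. The last pair of TGAC motifs share their opening letters, and no matches overlapped. TGATGNAA was present near the starts of 4 genes (Trib3, Chac1, Asns and Herpud1), compared with 3.97% of the 32851 promoters in the table. The ER stress response element was present before 1 gene, Hspa5, against 0.119% of all promoters. The serum response element was found in 1 gene, Herpud1, against 1.63% of all. The heat shock element (0.603% of all promoters), the cyclic AMP response element (1.79%) and the unfolded protein response element (0.676%) were found in 0 of the 10. In the windows below, written 5′ to 3′ on the strand of the gene, capitals mark the match.
Chac1: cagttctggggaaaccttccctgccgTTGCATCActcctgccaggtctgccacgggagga
Asns: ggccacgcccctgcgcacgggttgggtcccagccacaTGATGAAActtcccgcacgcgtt
Herpud1: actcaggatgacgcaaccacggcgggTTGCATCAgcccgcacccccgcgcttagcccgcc
Trib3: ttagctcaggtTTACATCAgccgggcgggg
Hspa5: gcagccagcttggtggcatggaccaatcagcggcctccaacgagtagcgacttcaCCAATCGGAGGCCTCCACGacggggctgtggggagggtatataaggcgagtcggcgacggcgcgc

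The Chac1 window is chr2:119351023-119351082 on the plus strand, with the match opening 193 bases before the start. The Asns window is chr6:7693210-7693269 on the minus strand, with the match opening 23 bases before the start. For Herpud1 the window is chr8:94386291-94386350 on the plus strand and the match opens 112 bases before the start. The Trib3 match lies in the transcribed part, from base 15, within chr2:152344028-152344057 on the minus strand. The Hspa5 window is chr2:34771970-34772089 on the plus strand, with the element opening 65 bases before the start. The match in Chac1, Herpud1 and Trib3 is on the opposite strand, so that it reads TTNCATCA here. A match is a run of letters and not a measured site, and no match says only that these letters are not in the window.

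**Figure D1:**
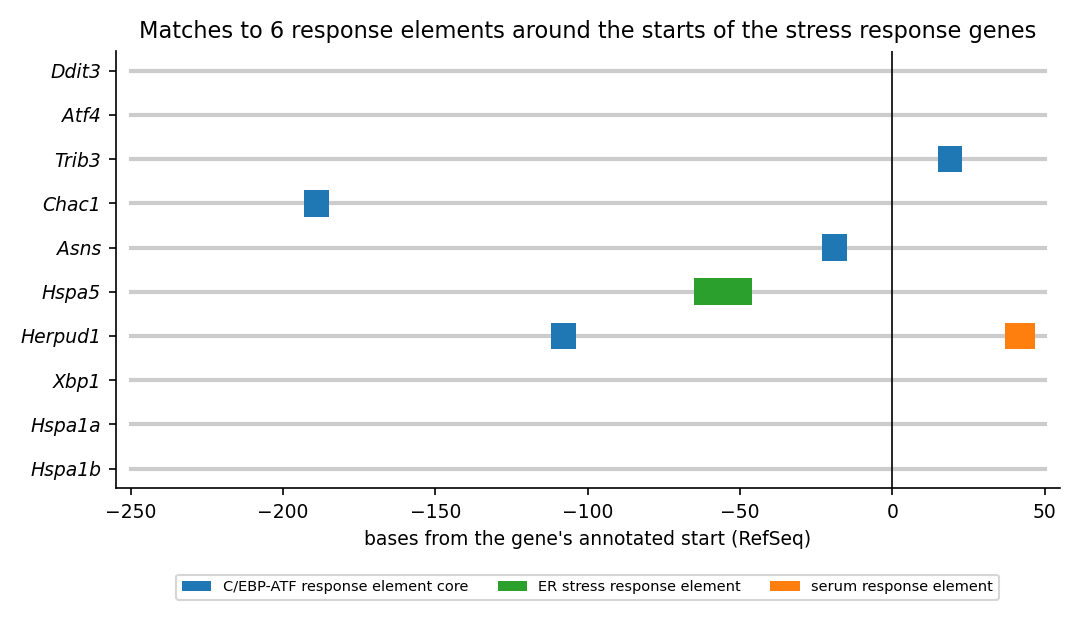
Matches to the searched response elements (coloured blocks, drawn to scale) along 250 bases before and 50 bases after the annotated start of each of the 10 genes; the x axis is the distance in bases and the vertical line is the start. Chac1, Asns, Herpud1 and Trib3 hold a C/EBP-ATF response element core, Hspa5 an ER stress response element and Herpud1 a serum response element after the start, and Ddit3, Atf4, Xbp1, Hspa1a and Hspa1b hold none.

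Where the probes lie on the mRNA matters in a study of 3′ end processing, since a probe at the end of a transcript reads the part that such processing can move. The polyadenylation signal AATAAA was present in 4 of the 10 probes, against 12.6% of all 39429 probes. It is shown in capitals in 30 bases of each.
Atf4: tgctgtgtttgctgtAATAAAttattttgt
Trib3: catcatgtgcccAATAAAagagagctgtgt
Asns: ggcatgaaaagaAATAAAagtttcacatct
Hspa5: accataagtgacaccAATAAAtgtttgtta

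These probes lie, on mm9, at chr15:80087902-80087961 (Atf4, plus strand), chr2:152163161-152163220 (Trib3, minus strand), chr6:7625171-7625228 (Asns, minus strand) and chr2:34631913-34631972 (Hspa5, plus strand). From 9 bases (Atf4 and Hspa5) to 25 bases (Trib3) of the probe follow the signal. A change in which 3′ end is used and a change in the amount of mRNA cannot be told apart by such a probe, and which of them occurred was not tested. The probes of Ddit3 (chr10:126732518-126732821) and of Hspa1a with Hspa1b (chr17:35107117-35107176) lie in coding sequence, with a reading frame free of stops. They are printed because the Ddit3 probe has coordinates that span 304 bases, more than its length of 60 bases, and because the Hspa1a probe is the one that stands for a pair of near-identical genes.
Ddit3: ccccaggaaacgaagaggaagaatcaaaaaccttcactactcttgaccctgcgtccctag
Hspa1a: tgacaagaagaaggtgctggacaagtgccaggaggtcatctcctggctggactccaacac

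The arrays had 43020 spots other than controls, no saturated spot, and a 75th percentile of the processed signal from 862 to 1063. Thoc5 itself (chr11:4828807-4828866) had signals in control cells of 4808 (Cy3) and 3047 (Cy5), and in knockdown cells of 546 and 455, which after scaling is 7.08-fold and 5.38-fold lower. All 10 fibroblast markers looked up (among them Col1a1, Fn1 and Vim) were well above background in every channel. Of 10 markers of other cell types, 5 were well above background in every channel and 2 (Cdh1 and Alb) in none, and their signals were at most 109. All 10 probes of the stress response genes were well above background in all 4 channels, each as 1 spot without an outlier mark. Their error is therefore the software's own estimate, 0.20 to 0.23 on the log2 ratio. The 399 probes printed as 10 spots varied less. The log2 ratios of their spots had an SD of 0.027 at the median on the control array (261 probes well above background) and 0.030 on the knockdown array (262 probes). Neither covers the spread between cultures. The mean log2 ratio of 10 spike-in probes was 0.24 higher on the knockdown array.

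The serum response of control cells was the question of the control array. The largest serum ratios among the stress response genes were those of Chac1, Atf4, Herpud1 and Hspa5, from 1.60 to 1.88, while Trib3 and Asns had ratios of 1.00 and 1.01. None of the 9 genes read was 2-fold higher or lower, where 2.64% of 18774 genes were at least 2-fold higher and 1.74% at least 2-fold lower. At 1.5-fold, 4 of the 9 were higher and 0 lower, against 6.72% and 5.84% of all genes. Over these genes the median log2 ratio was 0.45, and over all genes -0.02.

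In THOC5 knockdown cells Chac1 and Atf4 had nearly the serum ratios of control cells, Herpud1 and Hspa5 had lower ones (1.35 each) and Trib3 a higher one (1.60). Again 0 of the 9 genes passed 2-fold, against 0.945% of 18527 genes higher and 0.378% lower. At 1.5-fold, 3 of the 9 (Chac1, Atf4 and Trib3) were higher and 0 lower, against 3.46% and 1.57%. The median log2 ratio over the 9 was 0.43, beside -0.01 over all genes. The log2 ratio was larger than the software's error for 5 of the 9 genes in control cells and for 7 of the 9 in knockdown cells.

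**Figure D2:**
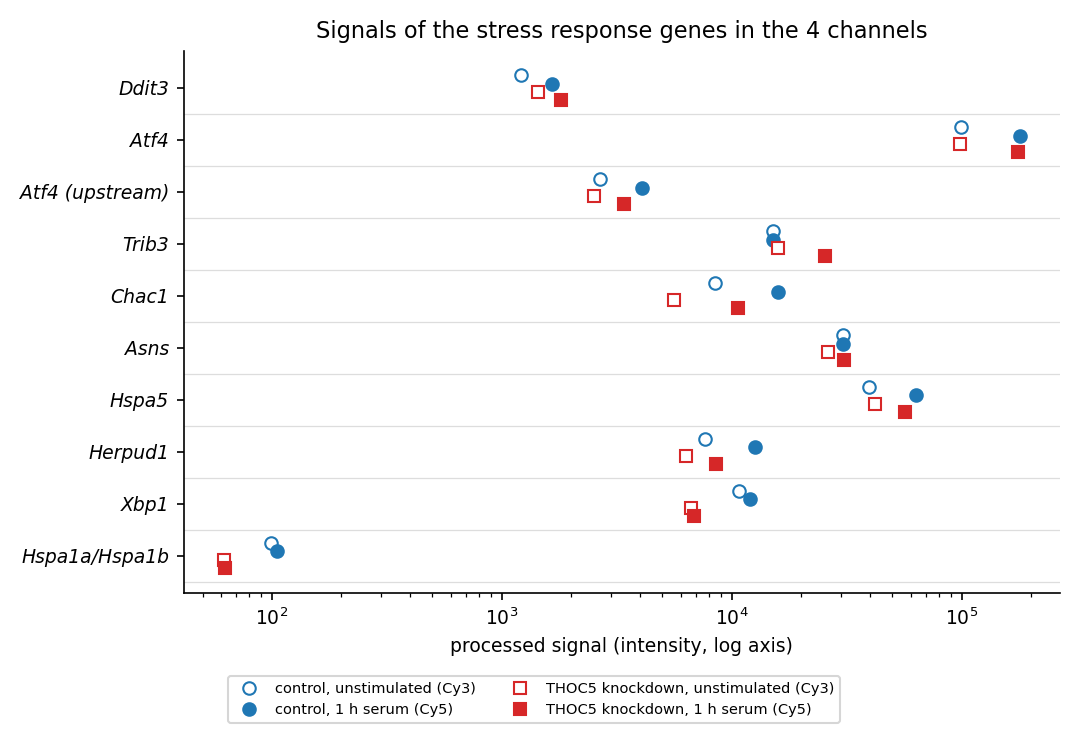
Processed signal (intensity, log axis) of each of the 10 probes in the 4 channels; circles are control cells, squares THOC5 knockdown cells, open symbols unstimulated and filled symbols 1 h of serum, each symbol 1 spot. Before scaling between the arrays, Trib3 shows 3 signals between 15077 and 15941 and 1, after serum in knockdown cells, at 25537. Both signals of Hspa1a with Hspa1b are near 62 in knockdown cells.

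Atf4, the transcription factor of the integrated stress response, had signals on its probe at the 3′ end of 99179 unstimulated and 179459 after serum in control cells, and of 98265 and 176531 in knockdown cells. The unstimulated signals were alike, but with 75th percentile scaling of the arrays the log2 unstimulated level was 0.29 higher in knockdown cells. Serum raised the signal by nearly the same amount on both arrays. This was a log2 ratio of 0.86 (1.81-fold) for control and of 0.85 (1.80-fold) for knockdown cells. The upstream probe of Atf4 (chr15:80086639-80086698) had signals of 2682 and 4068 in control cells and of 2524 and 3415 in knockdown cells. Its log2 serum ratios were lower, at 0.60 and 0.44, and so the probes of Atf4 did not give the same size of response.

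Ddit3 encodes CHOP, which promotes cell death under lasting stress. Its signals were 1217 and 1664 in control cells and 1433 and 1813 in knockdown cells. On each array the signal after serum was above the unstimulated one. The log2 ratios, 0.45 for control and 0.34 for knockdown cells, were short of 1.5-fold on both arrays.

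Trib3, a pseudokinase that CHOP and ATF4 induce and that restrains ATF4 and AKT, had signals of 15077 and 15148 in control cells and of 15941 and 25537 in knockdown cells. Before scaling between the arrays, the knockdown cells after serum stood apart from the other 3 channels. The scaled levels were 13573 and 13637 in control cells and 17547 and 28110 in knockdown cells. On the log2 scale the serum ratio of control cells was 0.01 and that of knockdown cells 0.68 (1.60-fold), with software errors of 0.20 and 0.21.

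Chac1, an enzyme that degrades glutathione, had signals of 8430 and 15839 in control cells and 5624 and 10627 in knockdown cells. Both signals were lower on the knockdown array, whose signals were lower in general, and the serum step was the same. With serum over starvation it was 1.88-fold in control and 1.89-fold in knockdown cells, apart from Atf4 by less than the software's error. After normexp and loess the order turned, with log2 ratios of 0.84 and 0.87 for Chac1 and of 0.94 and 1.05 for Atf4. Asns, asparagine synthetase, had signals of 30428 and 30583 in control cells and 26358 and 30728 in knockdown cells. The log2 ratios of Asns, 0.01 and 0.22, had errors of 0.20 and 0.21.

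Hspa5, the ER chaperone BiP that also holds the stress sensors inactive, had signals of 39644 and 63238 in control cells and of 42103 and 56828 in knockdown cells. Serum gave a higher signal on both arrays and a wider step in control cells. The log2 ratios of Hspa5 were 0.67 and 0.43. Herpud1, a membrane protein of ER-associated degradation (probe at chr8:96919117-96919176), had signals of 7624 and 12682 in control cells and 6331 and 8536 in knockdown cells. Its log2 ratios of 0.73 and 0.43 were close to those of Hspa5.

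Xbp1, whose spliced mRNA encodes an activator of ER chaperone genes, was read by a probe at chr11:5425816-5425875 alone, so its spliced and unspliced forms were not measured apart. Its signals were 10734 and 12079 in control cells and 6639 and 6883 in knockdown cells. The arrays differed more than the serum and starved channels did. The log2 serum ratios of Xbp1 were 0.17 and 0.05, both below the software's error. The shared probe of the inducible heat shock genes Hspa1a and Hspa1b was dim, with signals of 99.0 and 105 in control cells and 61.7 and 62.4 in knockdown cells, where the lowest signals called well above background on these arrays were 11.2 to 14.0. Its log2 serum ratios of 0.08 and 0.02 were below its error of 0.21 and 0.23.

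Whether loss of THOC5 changes the serum response was read from the log2 serum ratio in knockdown cells minus that in control cells. Trib3 was farthest from 0 among the 9 genes, with a difference of 0.67, or a ratio 1.59 times that of control cells. Herpud1 was lowest, with -0.30. For Trib3 the difference was larger than the combined software error of 0.29. For Herpud1 it was about equal to its error of 0.30, and it was -0.10 with both arrays brought to the same spread of log ratios and -0.55 with the spike-in offset subtracted. Hspa5 had -0.24, and from -0.49 to -0.05 under other processing. Asns had 0.21, Xbp1 -0.12, Ddit3 -0.11 and the probe of Hspa1a with Hspa1b -0.07, and Atf4 and Chac1 had -0.01 and 0.01. The difference was thus below 0 for 6 of the 9 genes and above 0 for 3, beside 8391 below and 8801 above among 17192 genes well above background in all channels. With the spike-in offset subtracted, 8 of the 9 were below 0, Asns (-0.03) and Chac1 (-0.24) among them, and the median of all genes was -0.24. With both arrays at the same spread of log ratios 5 were above 0, now with Ddit3 (0.03) and Atf4 (0.29). It passed 2-fold for 0 of the 9, where 0.814% of all genes were at least 2-fold higher and 1.16% at least 2-fold lower. At 1.5-fold, Trib3 alone was higher (1 of 9) and 0 were lower, against 4.07% and 3.76% of all genes. With the spike-in offset of 0.24 subtracted, the value of Trib3 was 0.43, short of 1.5-fold, and with both arrays brought to the same spread of log ratios it was 0.81.

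**Figure D3:**
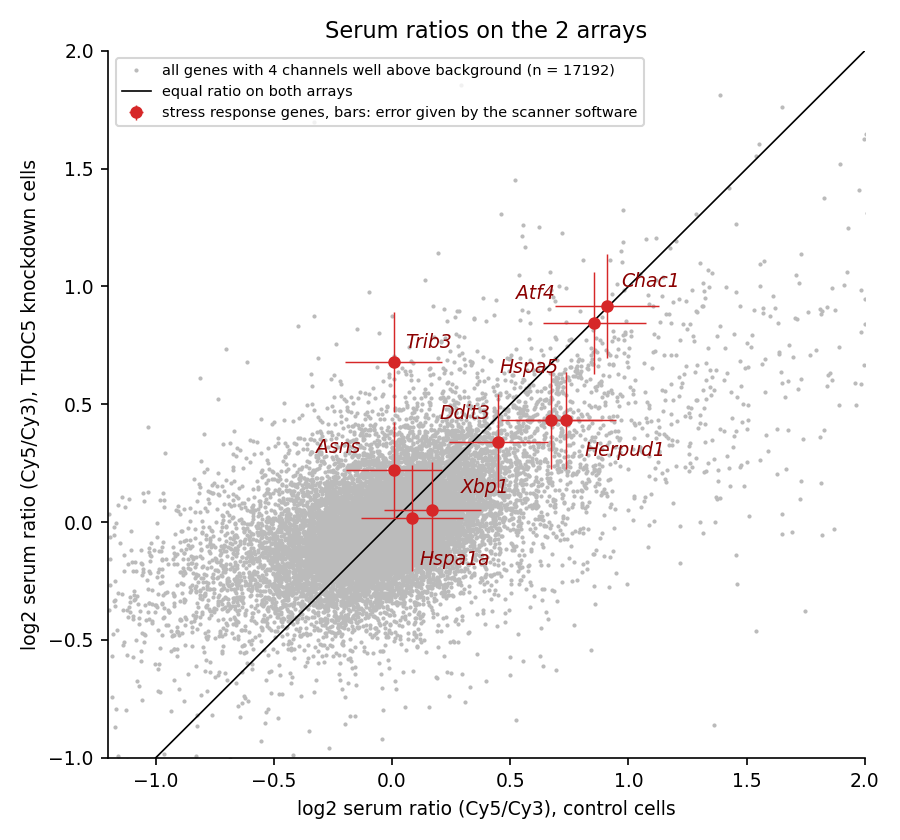
Log2 serum ratio (Cy5 over Cy3) in control cells (x axis) against THOC5 knockdown cells (y axis) for 17192 genes (grey; genes beyond the axes are not drawn) and for the 9 stress response genes read (red), with bars for the software's error; Hspa1a stands for Hspa1a and Hspa1b. Atf4 and Chac1 lie on the line of equal ratios, Herpud1 and Hspa5 below it, and Trib3 lies above it at 0.01 and 0.68.

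Levels in knockdown against control cells were compared after quantile scaling of the mean signals between the arrays. In unstimulated cells, the values ran from -0.51 for Hspa1a with Hspa1b to 0.55 for Ddit3 (1.46-fold higher), and none of the 9 passed 1.5-fold. Here 2.25% of 19051 genes were at least 2-fold higher and 2.06% at least 2-fold lower, and 6.32% and 6.21% passed 1.5-fold. Trib3 was at 0.37, Hspa5 at 0.30, Asns at 0.06, Herpud1 at 0.05, Atf4 at -0.01 (0.23 on its upstream probe), Chac1 at -0.26 and Xbp1 at -0.37. Without scaling between arrays Ddit3 was at 0.23, Hspa5 at 0.09, Trib3 at 0.08, Asns at -0.21 and Herpud1 at -0.27. Xbp1 (-0.69) and Hspa1a with Hspa1b (-0.68) were then past 1.5-fold lower, and the median of all genes was -0.26. The spread between spots within the arrays, from 10-spot probes of all signals, gives an SD of 0.068 for such a difference. Labelling, scaling and cultures are not in it. At signals of 50 to 150, as for the Hspa1a probe, the Cy3 spot SD was 0.080 (control) and 0.079 (knockdown), against 0.048 on each array over all signals. The median was 0.05 over the 9 genes and near 0 over all genes.

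After serum, Trib3 was the gene farthest from 0, at a level 2.06-fold higher in knockdown cells (log2 1.04; scaled levels 13637 and 28110). It was the 1 of 9 genes past 2-fold and past 1.5-fold on the higher side, where 2.46% of 18665 genes were at least 2-fold and 7.31% at least 1.5-fold higher. None of the 9 passed on the lower side, against 2.27% and 6.49% of all genes. Just inside 1.5-fold lay Hspa1a with Hspa1b at -0.58 (1.49-fold lower), followed by Xbp1 at -0.49 (1.40-fold lower). The others were Ddit3 at 0.44, Asns at 0.27, Hspa5 at 0.06, Atf4 at -0.02, Chac1 at -0.25 and Herpud1 at -0.25. The scaling keeps each array's ratio, so a value after serum is the sum of the unstimulated value and of the difference in serum ratios and is not independent of them: for Trib3, 0.37 and 0.67. Without scaling between arrays the value of Trib3 was 0.75. Xbp1 (-0.81), then farthest from 0, and Hspa1a with Hspa1b (-0.75) were past 1.5-fold lower. The median of all genes moved by -0.26. Among the fibroblast markers, 5 of 10 were above 0 and 5 below in unstimulated knockdown over control cells, with Pdgfra at -1.28 and Col3a1 at -1.13 past 2-fold. After serum 0 of 10 were past 2-fold, or 1 without scaling between arrays. The summed scaled level of the 10 markers was 450718 in control and 417261 in knockdown cells, and 415288 and 373420 after serum. Pdgfra was also the 1 fibroblast marker past 2-fold with serum, at -1.06 in control cells, but at -0.97 after normexp and loess and at -0.26 without dye normalization. Of the markers of other cell types, Epcam was lower in knockdown cells before and after serum (-1.37 and -1.29, bounds) and Cdh5 after serum (-1.12), and Cd68 was higher in both (1.23 and 1.04, bounds), all at low signals (Cdh5 42.7 and 50.7 in control, 21.7 and 21.1 in knockdown cells). After normexp none of these passed 2-fold (Epcam -0.61 and -0.45, Cdh5 -0.61, Cd68 0.38 and 0.42), and with a floor of 50 each was at 0. Their summed scaled level was 302 and 343 in control cells and 286 and 260 in knockdown cells. The part of these markers in the levels of the stress response genes was not tested. In such bulk RNA, fewer expressing cells and less RNA per cell cannot be told apart.

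**Figure D4:**
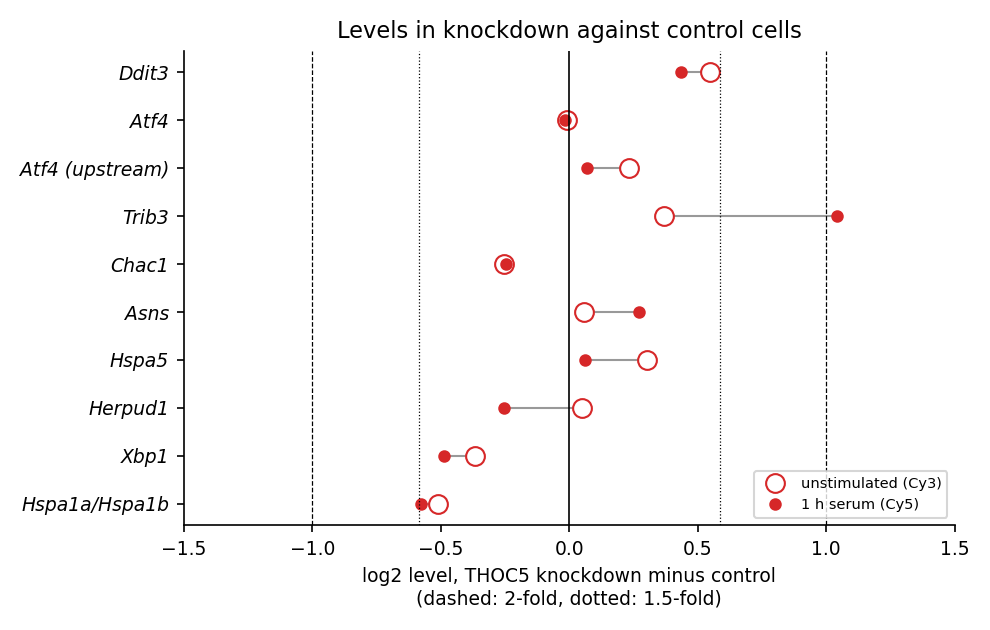
Log2 level in THOC5 knockdown minus control cells for each probe, open circles unstimulated (Cy3) and filled circles after 1 h of serum (Cy5), with dashed lines at 2-fold and dotted lines at 1.5-fold. Trib3 goes from 0.37 to 1.04, Herpud1 from 0.05 to -0.25, and Chac1 and the 3′ probe of Atf4 hardly move.

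The genes whose pattern was most like that of each of the 9 were found by Euclidean distance over the log2 serum ratio in control cells, that in knockdown cells and the log2 unstimulated difference, among 17192 genes. Within a distance of 0.1 lay 0 genes for Trib3 and Chac1, 1 for Atf4, 6 for Ddit3, 11 for Hspa5, 16 for Herpud1, 20 for Hspa1a, 42 for Xbp1 and 84 for Asns. The software's error of a serum ratio of the stress response genes, 0.20 to 0.23, is larger than 0.1. These counts and the order of the nearest genes are therefore uncertain. The nearest to Trib3 were Gdap10 (0.14), Abca8b (0.14) and Pnrc1 (0.22), whose higher serum ratio in knockdown cells follows from the choice by distance. Chac1 was nearest to AW060742 (0.13), Med13 (0.14) and Sp6 (0.17), and Atf4 to Slc1a4 (0.07), Fgf18 (0.11) and Arhgef15 (0.12). Hspa5 was nearest to 4930430D24Rik (0.01), Mt1 (0.04) and Rusc2 (0.05), and Herpud1 to Sema4a (0.04), Spag7 (0.05) and Ffar3 (0.06). Ddit3 was nearest to Itih4 (0.02), Dnahc6 (0.06) and Gm10536 (0.08). The others had as nearest genes Taf1, Gm2230 and Metapl1 for Xbp1, Cyp2w1, Cnn3 and Fnbp4 for Hspa1a, and Gm9521, Pramef8 and Gm13880 for Asns.

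The other genes of these pathways were taken as 5 lists. In the list of eIF2alpha kinases, phosphatase subunits and eIF2B, 0 of 15 genes passed 2-fold in any comparison. The share of all genes was 0.378% to 2.64% per comparison and direction. After normexp and loess, and with log ratios centred on their median, 1 of the 15 did with serum in control cells. It was Ppp1r15a, at log2 1.00 and 1.01. Without dye normalization, which moved the median of all genes by 0.84 and 0.77, 29.5% of all genes in control and 16.5% in knockdown cells were at least 2-fold higher with serum. Of this list 6 and 3 genes then were, of the stress sensors 4 and 1, of the ER chaperones 4 and 1, of the ATF4 and CHOP targets 19 and 20, and of the other heat shock genes 13 and 10. Ppp1r15a, the inducible subunit that brings a phosphatase back to eIF2alpha, had signals of 6407 and 12684 in control cells and 10069 and 17534 in knockdown cells. Its log2 serum ratios were 0.99 and 0.80, and its log2 unstimulated level was 0.96 higher in knockdown cells, a value named after it was seen. Of 10 ER stress sensors and processing proteases, 0 passed 2-fold in any comparison, against 0.378% to 2.64% of all genes per comparison and direction.

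Among 44 targets of ATF4 and CHOP outside the 10 genes, 2 were at least 2-fold higher with serum in control cells (4.55% of the list, all genes 2.64%). In knockdown cells 2 were (all genes 0.945%). They were Atf3 and Gdf15 on both arrays, and 0 were lower (all genes 1.74% and 0.378%). Atf3, a stress-induced repressor that serum also induces, had signals of 1843 and 10800 in control cells and 1960 and 8149 in knockdown cells, and log2 serum ratios of 2.55 and 2.06. Gdf15, a stress cytokine, was dim, at 12.0 and 29.7 in control cells and 25.8 and 55.2 in knockdown cells. Its log2 serum ratios of 1.30 and 1.10 were 0.39 and 0.56 after normexp, and 0.00 and 0.14 with a floor of 50, so that Atf3 was then the 1 gene of the list past 2-fold. The median log2 serum ratio of the list was 0.06 in control and 0.20 in knockdown cells, beside -0.02 and -0.01 over all genes. Gene by gene, the difference of the serum responses was above 0 for 22 of the 44 and below 0 for 22. Its median was -0.002, beside 0.008 over all genes.

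Gadd45a, a stress gene that acts in growth arrest and DNA repair, was the 1 of 44 at least 2-fold higher in the difference of the serum responses, against 0.814% of all genes. Its signals were 3996 and 2434 in control cells and 5222 and 6566 in knockdown cells. The signal after serum was lower than before it in control cells and higher in knockdown cells. Its log2 serum ratios were -0.72 and 0.33 and the difference 1.05. It was 0.99 with both arrays at the same spread of log ratios and 0.80 with the spike-in offset subtracted, so that 0 of 44 passed 2-fold then. In knockdown over control levels, Gdf15 was the 1 of 44 at least 2-fold higher in unstimulated cells (log2 1.25, all genes 2.25%), and after serum 3 of 44 were (6.82% of the list, all genes 2.46%), namely Gadd45a (1.75), Ero1l (1.26) and Gdf15 (1.05). Gdf15 was short of 2-fold after normexp (0.41 unstimulated, 0.57 after serum) and with a floor of 50 (0.00 and 0.21). Without scaling between arrays, Gadd45a (1.43) was the 1 of 44 past 2-fold after serum, with Ero1l at 0.98 and Gdf15 at 0.90. Ero1l, the ER oxidase that CHOP induces, had signals of 522 and 581 in control cells and 729 and 1143 in knockdown cells. None of the 44 was at least 2-fold lower in unstimulated cells or after serum, against 2.06% and 2.27% of all genes.

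Of 30 ER chaperones and degradation factors, 29 were found on the array by name and 28 had a signal well above background. Of these 28, 0 passed 2-fold in any comparison, against 0.378% to 2.64% of all genes per comparison and direction. The log2 serum ratios of the 28 had medians of -0.12 and -0.13 on the control and knockdown arrays, where Hspa5 itself had 0.67 and 0.43. Beside the median of all genes, that of this list was lower by 0.05 to 0.12 in control cells under every setting tried for the serum ratio. Their median level in knockdown over control cells was 0.14 unstimulated and 0.11 after serum, and -0.18 and -0.15 without scaling between arrays, where the median of all genes was -0.26 and -0.25. Of 24 other heat shock genes, 1 was at least 2-fold higher with serum on each array, against 2.64% and 0.945% of all genes: Dnajb1, a co-chaperone of the heat shock proteins, had signals of 14999 and 64015 in control cells and 12746 and 36299 in knockdown cells, with log2 serum ratios of 2.09 and 1.51. None of the 24 passed 2-fold in the difference or in levels, against 0.814% to 2.46% of all genes per comparison and direction. Without scaling between arrays 1 of the 24 was at least 2-fold lower in knockdown cells before and after serum, and after serum also with 75th percentile scaling. The probe of Hspa1a and Hspa1b, at 0.08 and 0.02, did not share that ratio.

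**Figure D5:**
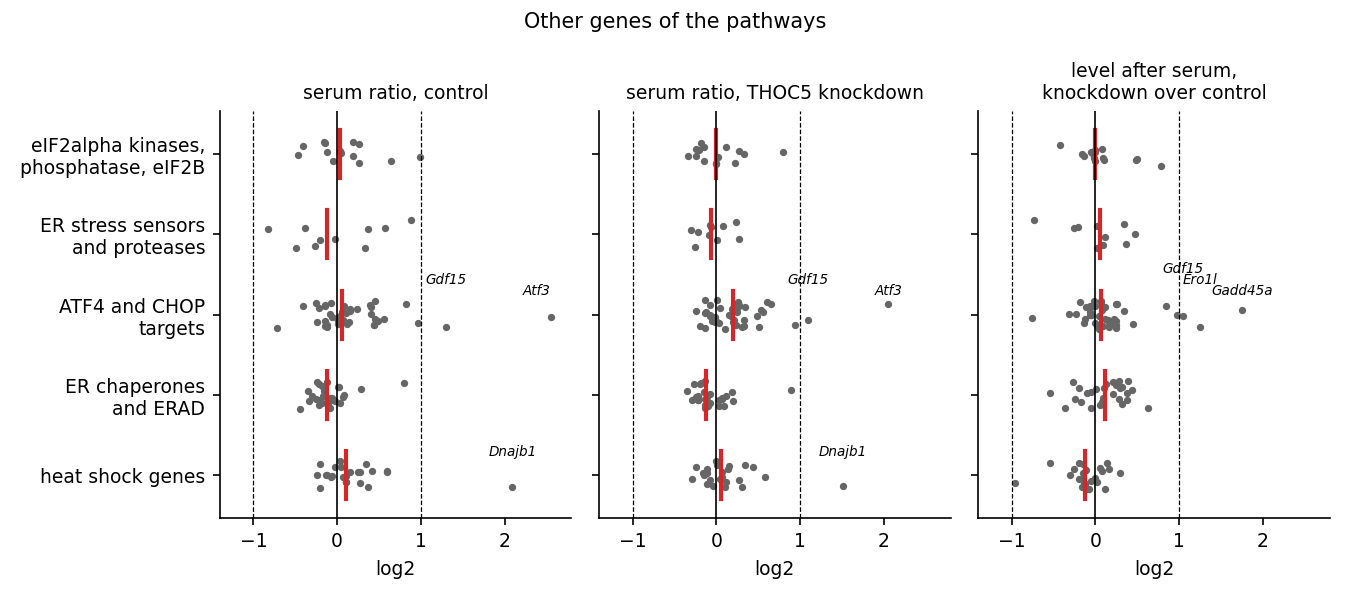
Log2 serum ratio in control cells, log2 serum ratio in THOC5 knockdown cells and log2 level after serum in knockdown over control cells, for the genes of the 5 lists (points, each 1 gene with a channel well above background, spread vertically for sight only); red bars are list medians and dashed lines 2-fold. Genes past 2-fold are named: Atf3, Gdf15 and Dnajb1 with serum on both arrays, and Gadd45a, Ero1l and Gdf15 in the level after serum.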

How the data were processed

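Per the file headers, the authors scanned 2 two-colour Agilent arrays with Feature Extraction 10.7.3.1, and their processed signals are intensities corrected for background and for dye (linear and LOWESS) within an array. The authors' deposited log10 ratio is that of Cy5 over Cy3, and their deposited series table holds scores that equalled, within 0.0001, the unsigned log10 ratio of signals raised to a floor for 100% of features, so it was used only as an alternative. Probe positions are on mm9. Outlier spots were left out, the brightest probe stood for a gene, and a gene was counted where at least 1 of the signals compared was well above background (all 4 for the difference of the serum responses); a dim side was set to the lowest such signal. Levels were scaled with limma 3.58.1 (Aquantile). Named genes are the 10 genes, Thoc5, list genes past 2-fold (at most 3 per direction) and the 3 nearest genes. Of the markers, Col1a1, Fn1, Vim, Cdh1 and Alb were named beside these. Ppp1r15a, Slc7a1 and Slc7a11 were named after their values were seen. The genes and lists were chosen with earlier results of these data known. Steps were tested on simulated data. Alternatives were other background, dye and array scalings, a floor of 50, mean probes, outliers kept, 1.5-fold and the spike-in offset. R 4.3.3 and Python 3.11.15 were used.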

Additional observations from a re-analysis of the deposited data

How the results depend on the processing

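The number of arrays limits every value: there is 1 per group, so no replicate could be left out. No paired analysis was possible because each group has 1 array and no test was made. Without dye normalization 7 of the 9 genes were at least 2-fold higher with serum on each array, where 29.5% of all genes in control and 16.5% in knockdown cells were, the median of all genes having moved by 0.84 and 0.77. With a 1.5-fold limit, 4 were higher in control cells, 3 in knockdown cells and 1 in the difference. After normexp with an offset of 50 and loess, 1 gene (Atf4, 1.05) was 2-fold higher with serum in knockdown cells, against 0.524% of all genes. Without scaling between arrays, 0 were 2-fold higher after serum. Of 45 values of single genes, 34 kept their sign under every alternative. The other 11 included Asns in control cells (-0.01) and Hspa1a in knockdown cells (-0.11) after normexp, and Atf4 and Chac1 in the difference of the serum responses (-0.25 to 0.29 and -0.24 to 0.33).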

Other observations

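Groups were formed by function within the lists after the values were seen, and are given as values. The 12 aminoacyl-tRNA synthetases, which charge tRNAs and are induced by ATF4, had log2 serum ratios from -0.24 to 0.44 in control cells and from -0.24 to 0.23 in knockdown cells. Of the 12, 0 passed 1.5-fold in any comparison, against 1.57% to 7.31% of all genes per comparison and direction. The 5 genes of serine and one-carbon synthesis had log2 serum ratios from -0.14 to 0.45 in control cells and from -0.20 to 0.61 in knockdown cells, with a median of 0.02 and -0.04. The 7 amino acid transporters had medians of 0.24 and 0.22. Slc7a1, which carries arginine and lysine, was highest in control cells at 0.82 and had 0.24 in knockdown cells. Slc7a11, the cystine transporter, was highest in knockdown cells at 0.94 and had 0.44 in control cells.

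The 4 eIF2alpha kinases had log2 serum ratios from -0.41 to 0.26 in control cells and from -0.15 to 0.22 in knockdown cells. The 5 eIF2B subunits, which reload eIF2 with GTP, had medians of -0.12 and -0.24. The log2 level of the 4 kinases in knockdown over control cells was from 0.03 to 0.22 unstimulated and from -0.06 to 0.48 after serum, where 1 of 4 was above 0. Without scaling between arrays all 4 unstimulated values were below 0, from -0.30 to -0.08. The spread between cultures is not known for any of these.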
